A study of Rattus norvegicus with 13 samples.

Results

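The WNK, TAO and SPAK kinases are a set of 9 genes: Wnk1, Wnk2, Wnk3 and Wnk4, Taok1, Taok2 and Taok3, Stk39, which encodes SPAK, and Oxsr1, which encodes OSR1. Every probe whose gene name in the array files was one of these symbols was kept, which gave 15 probes out of 45598 probes for 36174 gene names. Of these genes, 5 had several probes and 4 had 1 probe. Results of the comparison of KI-treated and control animals were known when these genes were chosen, so their differences between groups are given as a description, with no p-value for a kinase probe.

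RNA was taken from the thyroids of male Wistar rats, the progeny of mothers that had received potassium iodide (KI), or saline as the control, by gavage at 1 mg/kg/day for 8 days from gestational day 9. The last day of gavage was day 16 by the methods of the study and day 17 by its introduction. The animals were studied 51 days after birth, and the methods place the collection 30 days after weaning. Arrays numbered 6 in the KI-treated and 7 in the control group. Each was taken as the RNA of 1 animal, since the labels give only a group and a replicate number. KI or saline was given to the mother and not to the animals themselves. Litters are not given in the sources used here. The limma p-values set a group difference against the spread between these animals. That spread may understate the spread between litters, so these p-values may be too small.

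WNK kinases are serine/threonine kinases that lack the usual catalytic lysine and respond to chloride and to cell volume. They phosphorylate SPAK and OSR1, which in turn phosphorylate the cation chloride cotransporters of the Slc12 family and so set the movement of salt across epithelia. TAO kinases are members of the same STE20 group as SPAK and OSR1. They act upstream of the MAP kinases p38 and JNK and upstream of the Hippo kinases Stk3 and Stk4.

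Most of this account turns on the group differences of 3 probes: one Wnk4 probe with lower values in the KI-treated group, another Wnk4 probe with higher values there, and the probe of Taok3. Their sequences are shown so that the targets of the discordant Wnk4 probes can be told apart. They are given 5′ to 3′ as the array files list them, in lower case throughout, with no base marked.
Wnk4 A_64_P155012: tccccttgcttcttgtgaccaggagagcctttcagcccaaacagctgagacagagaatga
Wnk4 A_42_P468909: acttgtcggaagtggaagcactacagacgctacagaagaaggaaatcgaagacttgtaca
Taok3 A_43_P21800: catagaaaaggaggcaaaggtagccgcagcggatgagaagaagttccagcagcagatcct

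Both Wnk4 probes were designed on the same RefSeq transcript, starting at its bases 2866 and 3396, and therefore 530 bases apart. In the rn4 build named in the array files they lay on the plus strand at chr10:90304481-90304540 and chr10:90305270-90305329. The GC content was 51.7% for the first and 45% for the second. A Wnk4 probe that was rarely detected, A_44_P374559, lay further along the gene at chr10:90306764-90306823 and was designed on another transcript model. The Taok3 probe started at base 1668 of its transcript, had a GC content of 51.7%, and spanned 1549 bases of the minus strand at chr12:40525174-40526722, so it crossed at least 1 exon junction. Of the 15 probes, 12 covered an unbroken stretch of the genome and 3 crossed a junction. The coding or untranslated position of the probes was not annotated in the files. The transcript accessions of 12 probes were listed in the RefSeq table for GRCr8. The direction of the coordinates matched the strand of the gene in that table for 95% of 19582 probes of all genes and for 14 of the 15 kinase probes. The exception was the probe of Taok1, and near it, within 1 Mb, only 6 of 21 probes of other genes matched the table, so the mismatch was shared by most neighbouring probes.

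The values below are log2 of the background-subtracted intensity minus the 75th percentile of the same array, so 0 marks the 75th percentile. Levels of different probes depend on the probe and were not set against each other. A spot is called detected where the scanner software put it well above background. Detected spots numbered between 34840 and 41050 per array among 58717 gene spots, and no gene spot was saturated. The 75th percentile of intensity lay between 419 and 547 in the KI-treated group and between 242 and 493 in the control group. It was lowest in control 6 (242) and control 4 (290), and both lay in scan session 1, on slides that each held 1 KI-treated array. All 9 markers of thyroid follicular cells were detected on every array, among them Tg, the precursor of thyroid hormone (10.02 ± 0.13 in the KI-treated group and 10.28 ± 0.23 in the control group, SD). The summed level of 6 skeletal muscle markers was the only one of 10 marker sums that was more than 2-fold apart between group medians. It ranged from 1.47 to 5.78 (median 3.92) in the KI-treated group and from 4.03 to 7.14 (median 5.03) in the control group, and 5 of the 6 markers were detected on every array. The part of muscle tissue and of array brightness in the differences below was not tested. In whole thyroids, fewer cells of a type and less RNA per cell cannot be told apart.

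Of the 15 kinase probes, 11 were detected on at least 6 arrays, the minimum for the fit across all probes, and 9 were detected on all 13. Among the 11, 6 had a higher and 5 a lower mean in the KI-treated group, with a median difference of 0.03 and a range from -0.86 to 0.90 on the log2 scale. The median over all 25722 probes fitted was -0.08, with 10106 higher and 15616 lower. No kinase probe passed 0.05 in limma after adjustment, and of all probes 0% passed. Of the 11, 3 passed 0.05 without adjustment, against 12.7% of all probes, and since these genes were chosen with the comparison known, nothing is read from that count. Of the 3, 2 were lower in the KI-treated group (7.01% of all probes) and 1 was higher (5.71%). With slide as a block the higher one was not Wnk4 A_42_P468909 but Taok2 A_64_P155721. Higher probes made up 1469 of the 3271 unadjusted calls over all probes and lower ones 1802. This balance moved with the scaling. With quantile normalisation 1824 were higher and 1455 lower. With normexp correction and the 75th percentile, 1166 were higher and 3426 lower, and with the percentile over the probes detected on all arrays 1725 were higher and 1070 lower.

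**Figure D1:**
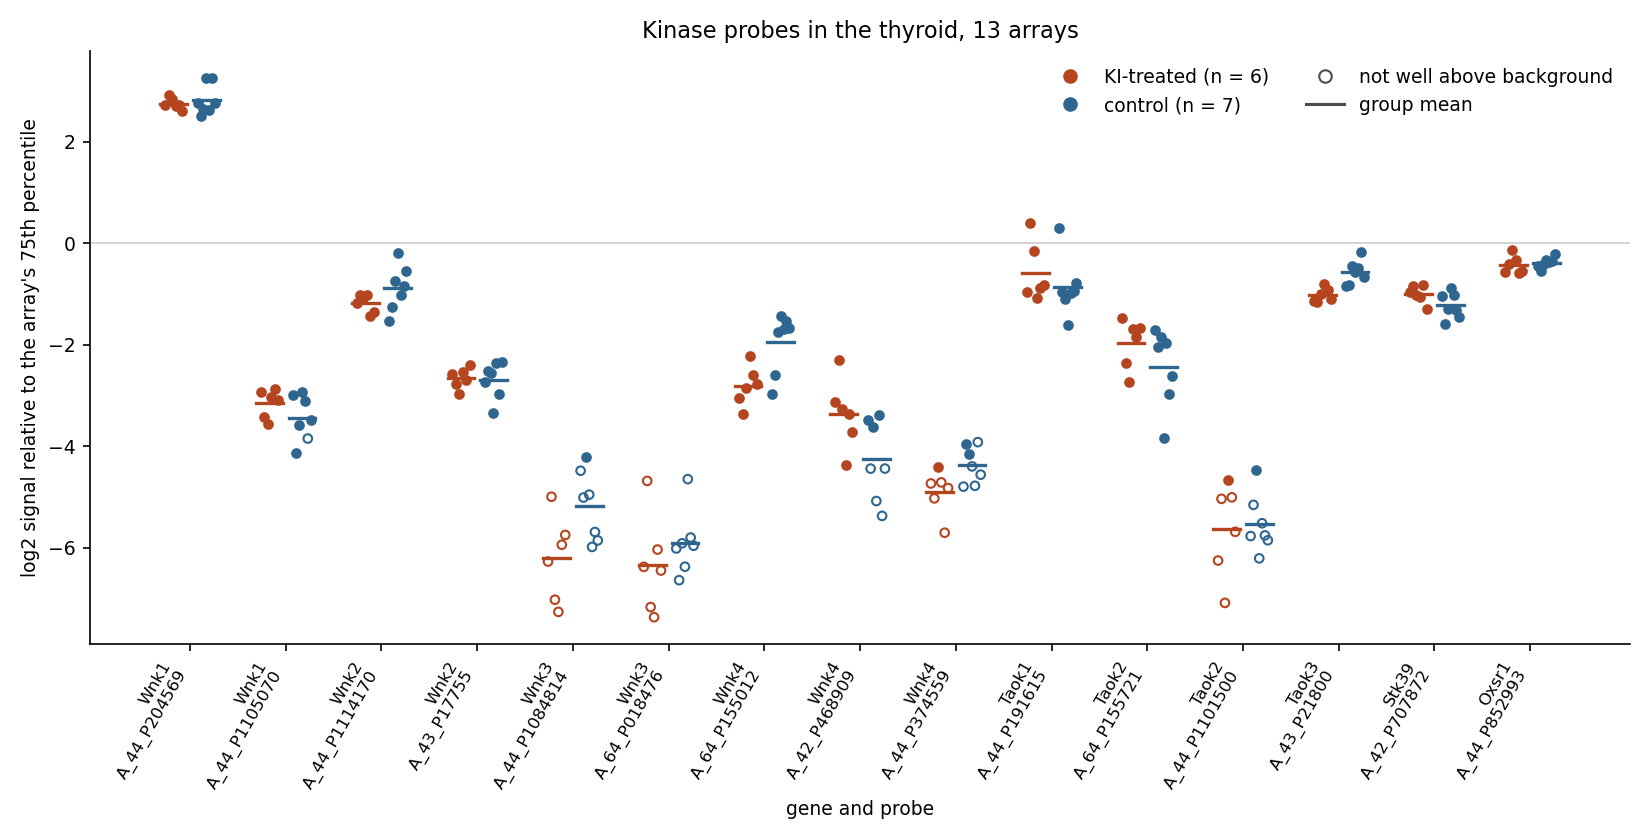
Scaled log2 signal (vertical axis, 0 at the 75th percentile) for the 15 kinase probes (horizontal axis), 1 point per array, for 6 KI-treated and 7 control arrays, with lines at the group means and open points where the spot was not well above background. The groups overlap for every probe, and the Wnk4 probes A_64_P155012 and A_42_P468909 have their group means in opposite order.

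The WNK kinases head the cascade. Wnk1, the broadly expressed member whose mutations cause a familial form of hypertension with high potassium, had 2 detected probes. With A_44_P204569 the KI-treated arrays ranged from 2.60 to 2.93 (median 2.72) and the control arrays from 2.51 to 3.26 (median 2.75). The group means were 2.75 ± 0.11 (SD, n = 6) and 2.83 ± 0.30 (SD, n = 7), a difference of -0.08 with a standard error (SE) of 0.14. Control 4 and control 6, the dimmest arrays, had the highest values of this probe, and without them the difference turned to 0.09 (SE 0.08). With A_44_P1105070 the values were -3.57 to -2.87 (median -3.05) in the KI-treated group and -4.13 to -2.93 (median -3.48) in the control group. The difference was 0.29 (SE 0.20), and 5 of 6 KI-treated arrays lay above the control median. The difference of this probe was -0.03 with normexp correction and the 75th percentile. The groups overlapped for both probes, and neither difference was larger than the SD of the control group.

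Wnk2, a member known mostly from the nervous system and as a brake on ERK signalling, was detected with both of its probes on all arrays. With A_44_P1114170 the KI-treated arrays ranged from -1.44 to -1.01 (median -1.13) and the control arrays from -1.53 to -0.19 (median -0.85). The difference was -0.30 (SE 0.19), and all 6 KI-treated arrays lay below the control median, within the control range. With A_43_P17755, which crossed an exon junction, the ranges were -2.97 to -2.39 (median -2.63) and -3.34 to -2.35 (median -2.56), and the difference was 0.03 (SE 0.17). This second difference changed sign in 6 of 26 alternative settings, some of which leave a difference unchanged by design.

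Wnk3, a member best known from neurons, was close to the background. Its probe A_64_P018476 was not well above background on any array, so no fold is given. Probe A_44_P1084814 was well above background on 1 control array and on none of the KI-treated arrays. The measured means were -6.20 in the KI-treated group and -5.17 in the control group, and as nearly all of these values were at or near the background, no fold and no direction is given.

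Wnk4, which regulates the sodium chloride cotransporter of the distal nephron and whose mutations also cause familial hypertension, had the largest differences among the kinase probes in the fit, and those of its 2 fitted probes were opposite in sign, as was known when the genes were chosen. With A_64_P155012, detected on all arrays, the KI-treated arrays ranged from -3.36 to -2.21 (median -2.82) and the control arrays from -2.96 to -1.44 (median -1.70). All 6 KI-treated arrays lay below the control median, and 5 of the 7 control arrays lay above every KI-treated array, while control 1 and control 2 fell within the KI-treated range. The means were -2.81 ± 0.39 (SD, n = 6) and -1.95 ± 0.58 (SD, n = 7), a difference of -0.86 (SE 0.26).

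With A_42_P468909, detected on all 6 KI-treated arrays and on 3 of 7 control arrays, the KI-treated arrays ranged from -4.37 to -2.31 (median -3.32) and the control arrays from -5.37 to -3.38 (median -4.44). All 6 KI-treated arrays lay above the control median, with overlap of the groups between -4.37 and -3.38. The means were -3.36 ± 0.68 (SD, n = 6) and -4.26 ± 0.79 (SD, n = 7), a difference of 0.90 (SE 0.37). Since 4 of the 7 control values were not well above background, and the probe entered the fit through the KI-treated arrays, the size of this difference is uncertain. It was 0.06 with normexp correction and the 75th percentile, 0.28 with normexp and quantiles, and 0.34 in the deposited values. The lowest values, -5.37 and -5.08, were those of control 6 and control 4, the dimmest arrays.

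The difference between the 2 probes on each array does not depend on the percentile subtracted from the array. It shows whether the probes diverged, and not which of them rose or fell. A_64_P155012 minus A_42_P468909 was -1.05 to 2.15 (median 0.59) on the KI-treated arrays and 0.53 to 3.84 (median 1.87) on the control arrays. Its size depends on the probes, and on 4 control arrays it rests on a value of A_42_P468909 that was not well above background. The shift between groups was -1.76 (SE 0.62), with group SDs of 1.06 and 1.17, and it was -1.19 (SE 0.58) without control 4 and control 6. This shift restates the 2 group differences above, so it adds no support to them. Their opposite signs were known when the genes were chosen. With normexp correction and the 75th percentile they were -0.55 for A_64_P155012 and 0.06 for A_42_P468909, so the shift was smaller there. The probe A_44_P374559, detected on 1 KI-treated and 2 control arrays and therefore not in the fit, had means of -4.90 ± 0.44 and -4.36 ± 0.37, a difference of -0.54 (SE 0.21) at or near the background, which was -0.07 with normexp and quantiles and -0.06 in the deposited values. For Wnk4 the sign of the difference depended on the probe, and the sizes moved with the processing. The A_64_P155012 difference ranged from -0.88 to -0.45 over the settings other than leaving out single arrays.

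**Figure D2:**
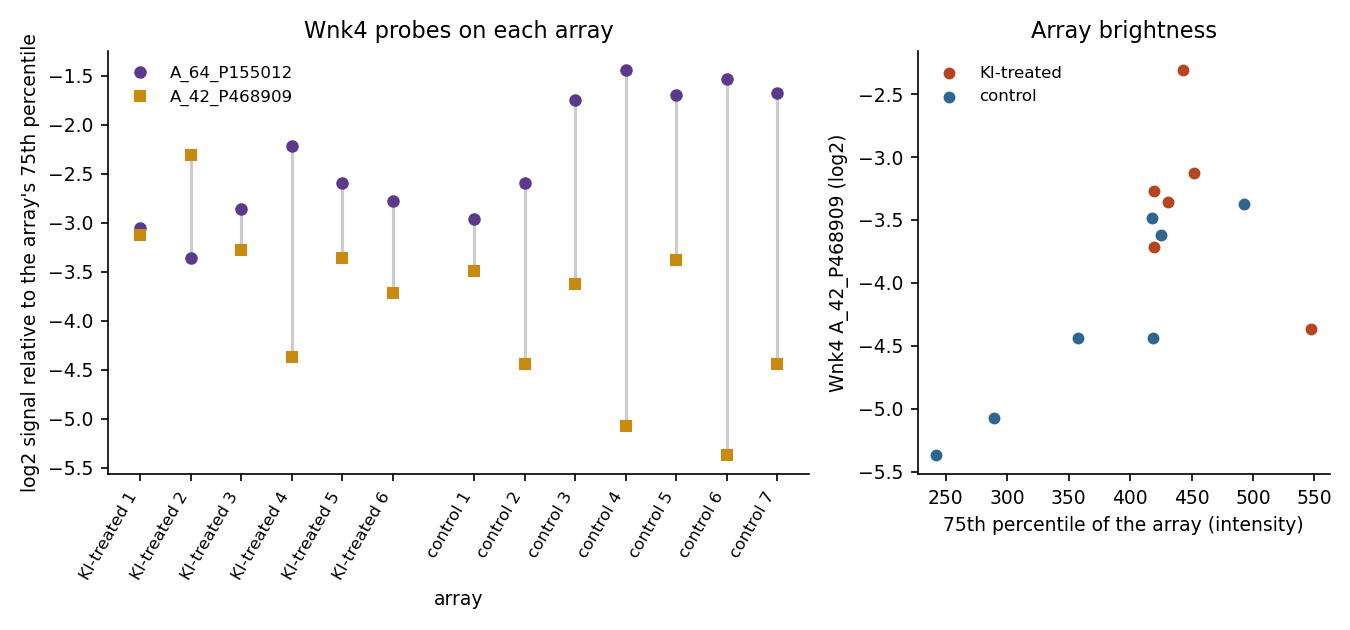
Left, scaled log2 signal (vertical axis, 0 at the 75th percentile) for the Wnk4 probes A_64_P155012 (circles) and A_42_P468909 (squares) on each of 13 arrays, joined by grey lines. Right, A_42_P468909 against the 75th percentile of intensity of each array, in which control 6 and control 4, at 242 and 290, have the lowest values (-5.37 and -5.08).

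The differences of the Wnk4 probes were also taken within batches. Slides are the glass slides of the arrays, and 5 of the 6 held both groups, with only 1 or 2 arrays of a group on each. The scan sessions regroup the same arrays, with 1 to 3 arrays of a group, and session 3 held 1 KI-treated array. Within those slides A_64_P155012 was lower in the KI-treated group on 4 of 5, with differences from -1.92 to 0.37, and A_42_P468909 was higher on 4 of 5, with differences from -0.87 to 2.77. Both differences were largest in scan session 1, which held the 2 dim control arrays, at -1.62 and 2.43. In session 2 they were -0.03 and 0.56, and in session 3 both probes were lower in the KI-treated group, at -0.51 and -0.55. Without control 4 and control 6 the differences were -0.67 (SE 0.27) and 0.51 (SE 0.33).

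Whether probes of one gene varied together between animals was tested after the mean of each group had been subtracted, which removes the comparison of the groups. A pair of probes in the fit was present for 3 genes. The Wnk4 pair varied in opposite directions over the 13 arrays (r = -0.60, permutation p = 0.0441, adjusted over 3 pairs p = 0.132; Spearman's rho = -0.60, permutation p = 0.0419, adjusted p = 0.126). Without the 2 arrays farthest from the median of the first probe r was -0.70. On 4 of the 13 arrays A_42_P468909 was not well above background, and over the 9 arrays on which both probes were, r was -0.61 (exact permutation p = 0.0236, adjusted p = 0.0708). The Wnk2 pair had r = -0.42 (permutation p = 0.256, adjusted p = 0.384) and rho = -0.18 (permutation p = 0.59, adjusted p = 0.885), and r was -0.14 without the 2 farthest arrays. The Wnk1 pair had r = 0.08 (permutation p = 0.840, adjusted p = 0.840) and rho = 0.01 (permutation p = 0.993, adjusted p = 0.993), and r was 0.06 without the 2 farthest arrays. No pair passed 0.05 after adjustment, and no pair gave a positive correlation that passed the test. With quantile normalisation the Wnk4 pair had r = -0.71 (adjusted permutation p = 0.0277). The 2 probes of each pair differed in the sign of the difference between groups, but for Wnk1 and Wnk2 this rested on a difference smaller than its SE, and without control 4 and control 6 the signs agreed for both (0.09 and 0.31 for Wnk1, -0.16 and -0.16 for Wnk2).

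The TAO kinases are the upstream arm of the MAP kinase and Hippo branches. Taok3 had the largest difference relative to its SE among the 11 kinase probes in the fit. The KI-treated arrays ranged from -1.15 to -0.81 (median -1.05) and the control arrays from -0.85 to -0.17 (median -0.57). The groups were apart except that KI-treated 4 (-0.81) lay above control 1 (-0.85) and control 2 (-0.82). The means were -1.02 ± 0.13 (SD, n = 6) and -0.58 ± 0.23 (SD, n = 7), a difference of -0.44 (SE 0.12), which is 1.36-fold lower in the KI-treated group. Taok3 was lower in the KI-treated group within all 5 slides that held both groups, by differences from -0.83 to -0.08, and within all 3 scan sessions, from -0.70 to -0.22. Each of these slides held only 1 or 2 arrays of a group, and the sessions regroup the same arrays. The batches are therefore not independent replicates, and their signs restate the group difference and add no support to it. The share of all probes that kept 1 sign within every batch is not given here. The Taok3 difference was -0.36 (SE 0.10) without control 4 and control 6. The gene had 1 probe, so no other probe could be set beside it.

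Taok1, whose product also acts on microtubules, ranged from -1.08 to 0.39 (median -0.85) in the KI-treated group and from -1.60 to 0.30 (median -0.96) in the control group. The difference was 0.28 (SE 0.29), less than the spread between arrays, and KI-treated 2 (0.39), KI-treated 3 (-0.16) and control 1 (0.30) stood above the rest. Within slides it ranged from -1.19 to 2.00.

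Taok2, known from the development of neurons, had A_64_P155721 detected on all arrays. Its values were -2.74 to -1.47 (median -1.76) in the KI-treated group and -3.84 to -1.71 (median -2.04) in the control group. The difference was 0.47 (SE 0.33), and the 2 lowest control values were again those of control 4 (-3.84) and control 6 (-2.97). Without these arrays the difference was 0.08 (SE 0.24). The probe A_44_P1101500 was detected on 1 array of each group and was not in the fit, with means apart by -0.09 (SE 0.37).

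SPAK and OSR1 are the kinases that carry the WNK signal to the cotransporters. Stk39 (SPAK) ranged from -1.30 to -0.82 (median -0.99) in the KI-treated group and from -1.58 to -0.89 (median -1.29) in the control group. The difference of the means was 0.23 (SE 0.13) beside SDs of 0.18 (n = 6) and 0.25 (n = 7), with 5 of 6 KI-treated arrays above the control median. It was higher in the KI-treated group within all 5 slides (0.05 to 0.45) and all 3 scan sessions (0.17 to 0.29). These slides held only 1 or 2 arrays of a group, and the sessions regroup the same arrays. The signs within batches restate the group difference and add no support to it. Oxsr1 ranged from -0.58 to -0.13 (median -0.48) and from -0.55 to -0.21 (median -0.37), and its difference of -0.04 (SE 0.10) was smaller than its SE. The sign of the Oxsr1 difference changed in 4 of 26 alternative settings, some of which leave it unchanged by design, and the groups overlapped for both kinases.

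**Figure D3:**
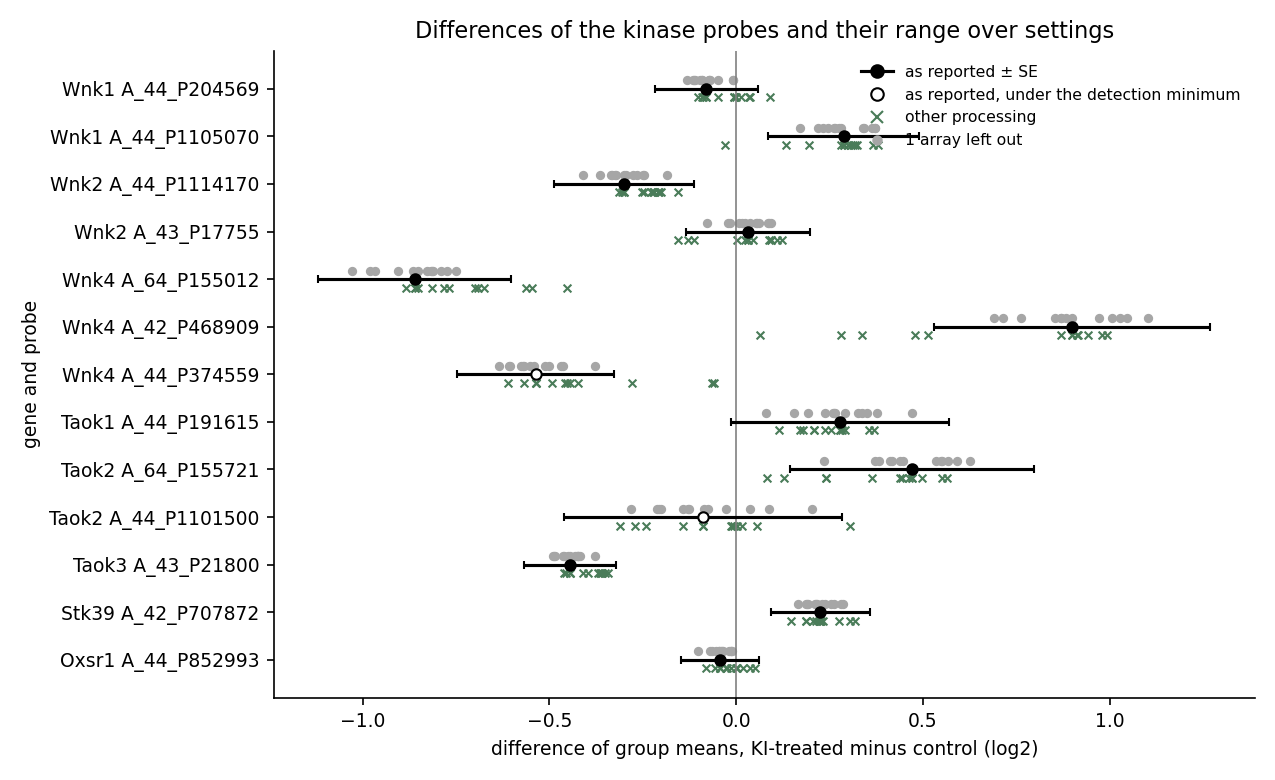
Difference of the group means, KI-treated minus control, on the log2 scale (horizontal axis) for 13 kinase probes, with bars of 1 SE (black, open where the probe was detected on fewer than 6 arrays), the same difference under other processing (crosses) and with 1 array left out (grey points). Taok3 stays between -0.49 and -0.34, while Wnk4 A_42_P468909 ranges from 0.06 to 1.10.

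The place of the dimmest arrays was counted. Control 4 or control 6 was the lowest or the highest of the 7 control arrays for 10 of the 11 kinase probes in the fit, against 80.7% of all 25659 fitted probes with a value on every array. They were the 2 lowest controls for 3 probes (Wnk2 A_43_P17755, Wnk4 A_42_P468909 and Taok2 A_64_P155721) and the 2 highest for 2 (Wnk1 A_44_P204569 and Wnk4 A_64_P155012). Both were the lowest controls for 17.5% and the highest for 31.2% of all these probes. The kinase probes were thus near the background of all probes in this respect.

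The genes linked to these kinases were taken from lists chosen by function, with earlier results of these data known. Nothing is therefore read from the counts of calls in these lists. Of 44 genes, 43 had a probe on the array (Klhl3 had none) and 40 had 1 in the fit, with 60 probes. None of the 60 passed 0.05 in limma after adjustment over all probes, and their lowest adjusted p was 0.359. Without adjustment 7 passed (11.7%, against 12.7% of all probes), 5 of them higher and 2 of them lower after KI, and the median difference of the 60 was -0.03 against -0.08 for all probes. This balance depended on the scaling. It was 6 higher and 0 lower in the deposited values, 5 and 0 with normexp and quantiles or with the percentile over the probes detected on all arrays, and 2 and 4 with normexp and the 75th percentile.

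The cation chloride cotransporters, which SPAK and OSR1 phosphorylate, had 7 probes in the fit for 6 of 7 genes and none past 0.05 without adjustment, with a median difference of -0.07. The partners and regulators of the cascade, such as the ubiquitin ligase scaffold Cul3 and the activator Cab39, had 0 of 13, with a median of -0.05. The channels linked to WNK signalling, among them the epithelial sodium channel, had 0 of 7, with a median of 0.02. The lists next to WNK, SPAK and OSR1 thus held no call by either threshold.

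In the MAP kinase branch 1 of 15 probes passed without adjustment, and 0 with normexp and the 75th percentile. Map2k4, the kinase that activates JNK, ranged from -2.07 to -1.69 (median -1.84) in the KI-treated group and from -3.71 to -2.07 (median -2.20) in the control group. Its groups did not overlap, by a margin under the rounding of these values, which was so for 0.257% of all probes in that direction. The difference was 0.59 (SE 0.23, limma adjusted p = 0.370), and it was 0.39 without control 4 and control 6.

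In the Hippo branch 2 of 10 probes passed without adjustment, both lower in the KI-treated group, against 7.01% of all probes in that direction. No probe of this list passed with normexp and quantiles, in the deposited values or with the percentile over the probes detected on all arrays. Stk4, the Hippo kinase MST1, ranged from -2.88 to -2.02 (median -2.46) and from -2.32 to -1.43 (median -2.12), a difference of -0.39 (SE 0.17, limma adjusted p = 0.382). Mob1a, the adaptor of the LATS kinases, had a difference of -0.26 (SE 0.12, limma adjusted p = 0.387) with 1 probe and -0.15 (SE 0.13) with its other probe.

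The list of other STE20 kinases had 4 of 8 probes past 0.05 without adjustment, all higher in the KI-treated group (5.71% of all probes in that direction), and a median difference of 0.25. This list of 7 genes was also chosen with earlier results known, so nothing is read from its count. With normexp and the 75th percentile, 2 of the 8 passed, Stradb and Stk10. Stradb, a pseudokinase partner of LKB1, ranged from -1.71 to -1.12 (median -1.33) in the KI-treated group and from -3.52 to -1.54 (median -1.86) in the control group. Its difference was 0.83 (SE 0.32, limma adjusted p = 0.369), and it fell to 0.36 without control 4 and control 6. Stk24, Stk26 and Stk10 had differences of 0.36 (SE 0.15, limma adjusted p = 0.382), 0.55 (SE 0.20, limma adjusted p = 0.359) and 0.33 (SE 0.14, limma adjusted p = 0.382). Without the 2 dim arrays these were 0.18, 0.51 and 0.45. Stk24 and Stk26 encode GCKIII kinases of the STRIPAK complex, and Stk10 encodes LOK, a kinase of ERM proteins.

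**Figure D4:**
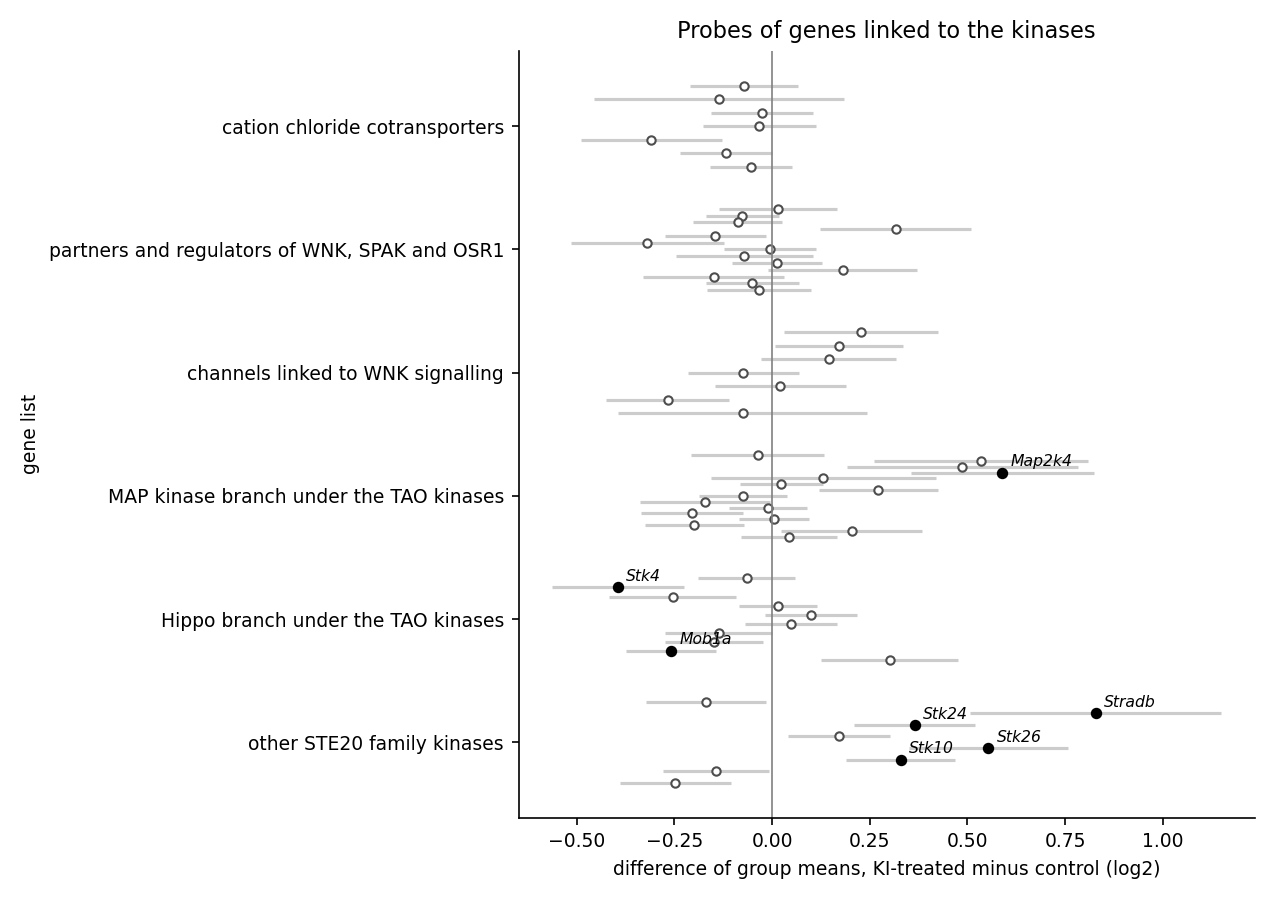
Difference of the group means, KI-treated minus control, on the log2 scale (horizontal axis) with bars of 1 SE for the 60 probes in the fit of 6 lists of genes linked to the kinases (vertical axis). Filled points mark the 7 probes past 0.05 without adjustment, of which none passed after adjustment.

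The probes whose pattern between animals was most like that of the Wnk4 and Taok3 probes were found among 13782 probes of named genes detected on all 13 arrays, by Pearson's r over the 13 arrays after subtraction of the group means. For Wnk4 A_64_P155012 they were those of Tubgcp3 (r = 0.98), Ubn1 (r = 0.96) and Ly6g5c (r = 0.96). For Taok3 they were those of Taf15 (r = 0.95), Gfra3 (r = 0.91) and Rmnd5a (r = 0.91). These are the highest values of a large search over points that share their arrays and their scaling, and they carry no test.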

How the data were processed

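Thyroid RNA of 13 animals was hybridised to one-colour Agilent arrays, and each array was assigned to the KI-treated or the control group by its label. The authors deposited the output of Agilent Feature Extraction 10.7.3.1 for each array, with a processed intensity per spot that was background-subtracted and detrended but not normalised between arrays. Dim intensities depend on that subtraction. A deposited table of processed log2 values, with a normalisation that is not given in the sources used here, served as an alternative. The tables held 0 columns of other samples.

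Outlier-flagged and control spots were left out, spots of one probe were averaged, and the 75th percentile of log2 intensity over probes was subtracted on each array. Probes that at least 6 arrays showed well above background were fitted with limma (version 3.58.1 in R 4.3.3, lmFit and eBayes, Benjamini-Hochberg adjustment, threshold 0.05). The fit was tested on simulated data, where it recovered 1, 131 and 193 of 200 probes changed by 0.5, 1 and 2 on the log2 scale, among 25659. The simulated noise was drawn separately for each probe and array, without the variation between arrays that the real probes share. Recovery in the real data may therefore differ. Agreement of probes was tested with 100000 permutations within groups, two-sided (Python 3.11.15, numpy 2.4.6). The number of arrays limits the precision.

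The kinase genes and the lists were chosen with earlier results of these data known. Named are all 9 genes with every probe, the linked genes with a probe past 0.05 without adjustment, Tg and 1 marker that is not reported here, any marker sum more than 2-fold apart, and the 3 probes most like Wnk4 A_64_P155012 and the Taok3 probe (for each gene the fitted probe of highest signal). Other linked genes, such as Cul3, are named only to say what a list holds. Alternatives were quantile normalisation, normexp correction (offset 50), the deposited log2 values, other percentiles and filters, slide, scan session or replicate number as a block, array weights, the methods' t-test and leaving out each array. The percentile over all spots, the exclusion of the 2 dimmest arrays and the agreement over arrays with both probes detected were added after the data had been seen. A probe of Taok2 filed under a transcript identifier lay outside the choice by gene name. Cortex arrays were not analysed here.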

Additional observations from a re-analysis of the deposited data

Results flagged for a closer look

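Within each group the highest and lowest arrays of the kinase probes detected on all arrays of that group were checked for a gap to their neighbour that was large against the range of the group. Of 20 checks, 1 was past the 95% limit of Dixon's test, and chance flags about 1 in 20. It was control 1 for Taok1, at 0.30 on the log2 scale, with the next control array at -0.78 and a gap of 0.570 of the group's range.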

How the results depend on the processing

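Over all probes, 0 passed 0.05 after adjustment in limma (3271 without adjustment), and leaving out 1 array gave 0 to 1, with 1 each without control 1 and without control 2. Array weights gave 50. Unadjusted calls rose to 5120 with scan session as a block and were 2364 to 4598 with 1 array left out. The 3 unadjusted calls among the kinase probes became 5 of 15 with no filter on dim probes. In that setting 4014 of all 45598 probes passed without adjustment. The added calls were Wnk3 A_44_P1084814 and Wnk4 A_44_P374559, which were well above background on 1 and 3 of the 13 arrays. Most of their values were at or near the background, so nothing is read from this rise. With 1 array left out, the unadjusted calls among the kinase probes were 2 to 4. The 7 of the linked genes became 3 with the replicate block and were 3 to 9 with 1 array left out (3 without KI-treated 1 and 4 without KI-treated 5). The replicate numbers were shared by name only, since the 6 same-numbered pairs had correlations of deviations between -0.22 and 0.06, no array correlated best with its own number, and the block gave 2353 unadjusted calls over all probes and 3 among the kinase probes. Quantile normalisation took the Wnk4 probe pair past the threshold (r = -0.71, adjusted permutation p = 0.0277). With the slide removed as well and 288 rearrangements within slides, r was 0.63 for Wnk1, -0.90 for Wnk2 and -0.76 for Wnk4, and none passed (adjusted exact permutation p = 0.139, 0.139 and 0.115). The 26 alternative settings for each of 13 kinase probes were not all distinct. A change of the filter on dim probes leaves a difference as it was, and the replicate block repeats the value without control 7. Of the 13 probes, 8 kept the sign of their difference in every setting. Those that changed it were both Wnk1 probes, Wnk2 A_43_P17755, Taok2 A_44_P1101500 and Oxsr1. Wnk4 A_42_P468909 was 0.06 with normexp correction and the 75th percentile, 0.28 with normexp and quantiles, 0.34 in the deposited values and 0.48 with array weights, and Wnk4 A_64_P155012 ranged from -1.03 to -0.45. Wnk4 A_44_P374559 was -0.07 with normexp and quantiles and -0.06 in the deposited values. The causes were not tested. Of the probes that changed sign, Wnk1 A_44_P204569, Wnk2 A_43_P17755 and Oxsr1 were well above background on all 13 arrays. Wnk1 A_44_P1105070 was so on 12 and Taok2 A_44_P1101500 on 2. Dim values depend on the background subtraction, and its part in these changes was not tested.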
